A study of Homo sapiens with 2 samples.

Results

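The 14-3-3 proteins are a family of small dimeric adaptors, of which 6 genes are described here: YWHAB (beta), YWHAE (epsilon), YWHAG (gamma), YWHAH (eta), YWHAQ (theta) and YWHAZ (zeta). They were chosen by name. Each isoform locus of the long-read data took the name of the annotated gene of its strand whose exons it covered most, and the loci of these 6 symbols were kept, which are 6 of the 12178 loci with a listed edit in either library (10081 with a gene symbol). Their positions in both libraries numbered 140 for RBFOX2-INSCRIBE and 83 for the enzyme-only control, of 121930 and 103684 in all.

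The data come from HEK293T cells, an established human embryonic kidney line (the labels also give the name HEK293XT), fixed and then treated in situ with a purified fusion of APOBEC1, a cytidine deaminase, and a nanobody against rabbit IgG. In the RBFOX2 library a rabbit antibody against RBFOX2 brought the fusion to this RNA-binding protein, so that nearby cytosines were read as C-to-U conversions, while the enzyme-only library received the fusion without antibody. Both groups share the line and the enzyme and consist of 1 PacBio full-length cDNA library each, so no difference below has a replicate check, all comparisons are between these 2 libraries, and no p-value is given. The intervals in brackets are 95% intervals that cover counting error only.

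14-3-3 proteins bind phosphorylated serine or threonine motifs in many signalling, cell cycle and metabolic proteins and thereby change the activity, partners or localization of the bound protein, which is called a client. The family members pair as homodimers or heterodimers and share many clients, so the members are largely redundant in binding, although they differ in tissue and dimer preference. RBFOX2 is a splicing regulator that recognizes UGCAUG in introns and in 3′-UTRs.

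The 3′-UTRs of 5 of the 6 genes, all but YWHAB, hold the RBFOX2 motif, and sequences at these motifs are shown first because the positions near them are compared between the libraries below. They are hg38 reference sequence, written 5′ to 3′ on the strand of the gene, with the motif, read as DNA (T for U), and every listed cytosine in capitals. YWHAQ lies on chromosome 2, minus strand, YWHAH on chromosome 22, plus strand, and YWHAG on chromosome 7, minus strand, where the distal motif is the one nearer the 3′ end. All lie in 3′-UTR.
YWHAQ motif, chr2:9584500-9584529: aaagTGCATGtcatttCttaataCaCtaga
YWHAH motif, chr22:31957163-31957192: ttCgttaagcagtaCatcttgTGCATGcaa
YWHAH 3′ of the motif, chr22:31957194-31957223: aatgaattcaCccctcccacctCtttcttC
YWHAG 5′ of the distal motif, chr7:76327360-76327389: cagtgaaatgattaCtcctccattactCta
YWHAG distal motif, chr7:76327318-76327347: tgTGCATGctagtgttgtatttctataCag
YWHAG proximal motif, chr7:76329118-76329147: tcTGCATGttttccagggtgtagCctaCag

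These windows show the positions in their setting. In the YWHAQ window the 3 capital cytosines outside the motif were listed with RBFOX2 alone, and each follows a U or an A. In YWHAH the first 4 capital cytosines outside the motif were of the RBFOX2 library and the last one, at the end of the second window, of the enzyme-only library. The YWHAG proximal window holds 1 cytosine of each library, and the capital cytosine 3′ of the distal motif was listed in both.

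A contrasting pair of windows carries no RBFOX2-specific position. The first is from the 5′-UTR of YWHAB on chromosome 20, plus strand, where the capitals mark 2 cytosines of a GCC repeat that were listed in both libraries. The second lies 3′ of the motif of YWHAE on chromosome 17, minus strand, where the capitals in a pyrimidine-rich run mark 1 enzyme-only and 1 shared position.
YWHAB repeat, chr20:44885745-44885774: ccggggtagtcgccgCcgccgCcgccgctg
YWHAE 3′ of the motif, chr17:1344730-1344759: ttgtttcttctccttCcccCtccccctacc

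The tables list a position only where more than 0.002 of the reads of its gene were converted, and the reads are those of the whole gene, not of the position. The minimum of converted reads therefore rises with depth: it was 1 in both libraries for YWHAG (449 reads with RBFOX2, 378 enzyme-only), 2 for YWHAE (965 and 883) and YWHAH (991 and 870), 3 for YWHAZ (1381 and 1387), 4 for YWHAB (1678 and 1617), and for YWHAQ (2035 and 1983) 5 with RBFOX2 and 4 enzyme-only. A position absent from a library can have had converted reads below that minimum. The libraries held 2431345 and 2233600 gene reads, and between 86.9% and 99.0% of the 8136 loci listed in both had fewer RBFOX2 reads than each of the 6 genes.

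Of the listed positions, 111 were found in the RBFOX2 library alone, 54 in the enzyme-only library alone and 29 in both. The latter were left out of the comparisons unless they are named. The study removes edits seen in every replicate and sample as putative variants. The rule here is looser, since listing in 1 library of each group was enough. Scaled by the library totals of such unshared positions (109357 and 91111), the log2 ratio of the 6 genes together was 0.78 (0.29 to 1.27), although the members had almost equal reads, 7499 and 7118. Scaled by those reads it was 0.96. The ratio was not set by 1 gene: leaving out each member in turn gave 0.59 to 0.95. Counting only positions with at least 2 converted reads, which leaves 1 of the 49 unshared positions of YWHAG, it was 0.37 with an interval that includes 0 (-0.22 to 0.98). Deeply read genes in general had more RBFOX2 positions. In plain counts, not scaled by the library totals and not as log2, the members had 111 and 54. In the same counts the 787 genes read at least 500 times in each library had 7743 and 4585. That is a plain ratio of 1.69 with 1.11 times the reads. YWHAG was below that depth, the other 5 members above it.

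**Figure D1:**
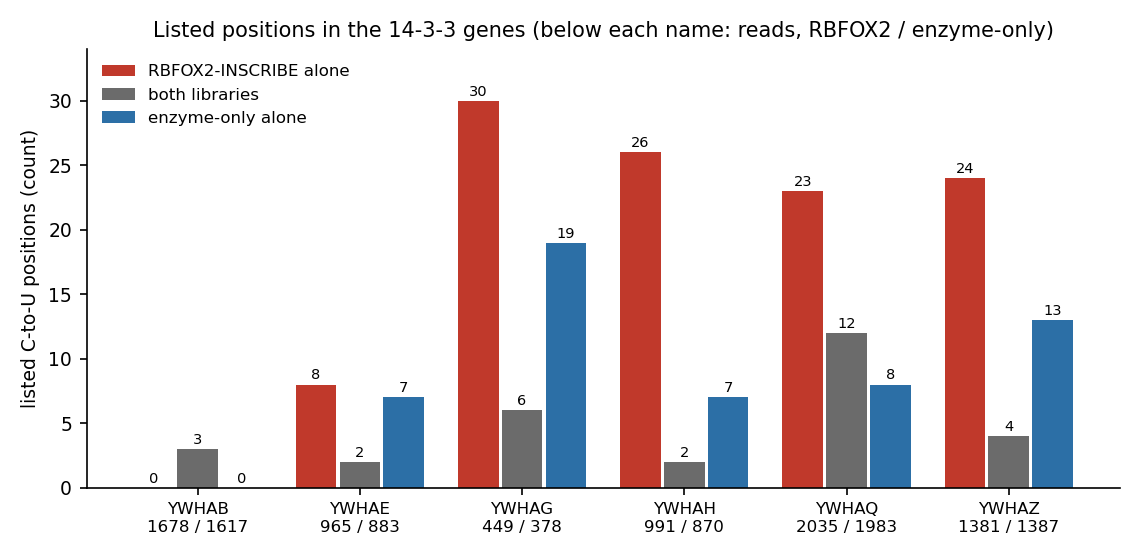
Number of listed C-to-U positions (y axis, count) in each 14-3-3 gene, split into those of the RBFOX2-INSCRIBE library alone, of both libraries and of the enzyme-only library alone; the gene's reads in the 2 libraries stand under its name. RBFOX2 positions outnumber enzyme-only positions 26 to 7 in YWHAH and 23 to 8 in YWHAQ, while YWHAE has 8 and 7 and YWHAB none of either kind.

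The genes differed among themselves. YWHAH, the eta member (locus PB.50312, chr22:31944475-31957602), had 26 RBFOX2 and 7 enzyme-only positions, a log2 ratio of 1.56 (0.39 to 3.08). YWHAQ, the theta member (PB.5362, chr2:9583978-9631018), had 23 and 8, a log2 ratio of 1.20 (0.05 to 2.63). YWHAZ, the zeta member (PB.26226, chr8:100918577-100953385), had 24 and 13, 0.60 (-0.41 to 1.72). YWHAG, the gamma member (PB.23361, chr7:76326800-76358991), had 30 and 19, 0.38 (-0.48 to 1.31). The intervals of these 4 genes overlap one another, so their order is not resolved. YWHAE, the epsilon member (PB.43016, chr17:1344276-1456241), had 8 and 7, -0.08 (-1.73 to 1.63), and YWHAB, the beta member (PB.48720, chr20:44885700-44908530), had no unshared position.

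2 of the 4 members with at least 20 unshared positions, YWHAH and YWHAQ, were past a log2 ratio of 1, and none was under -1. Among all 3604 genes with as many positions, 16.8% were past 1 and 14.6% under -1, and among those that were also read at least 500 times in each library, as YWHAH, YWHAQ and YWHAZ had, 40.3% were past 1. A share of 2 in 3 against 40.3% is too small a count to set these genes apart. YWHAH ranked 263, YWHAQ 463, YWHAZ 1032 and YWHAG 1349 of the 3604 genes from the highest ratio down. YWHAQ depends most on the rules of listing: with the higher minimum of 5 reads applied to both libraries it had 23 and 4 positions, a log2 ratio of 2.04 (0.63 to 4.17), and with its 12 shared positions counted the ratio was 0.56. YWHAH moved less, to 1.47 and 1.35.

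**Figure D2:**
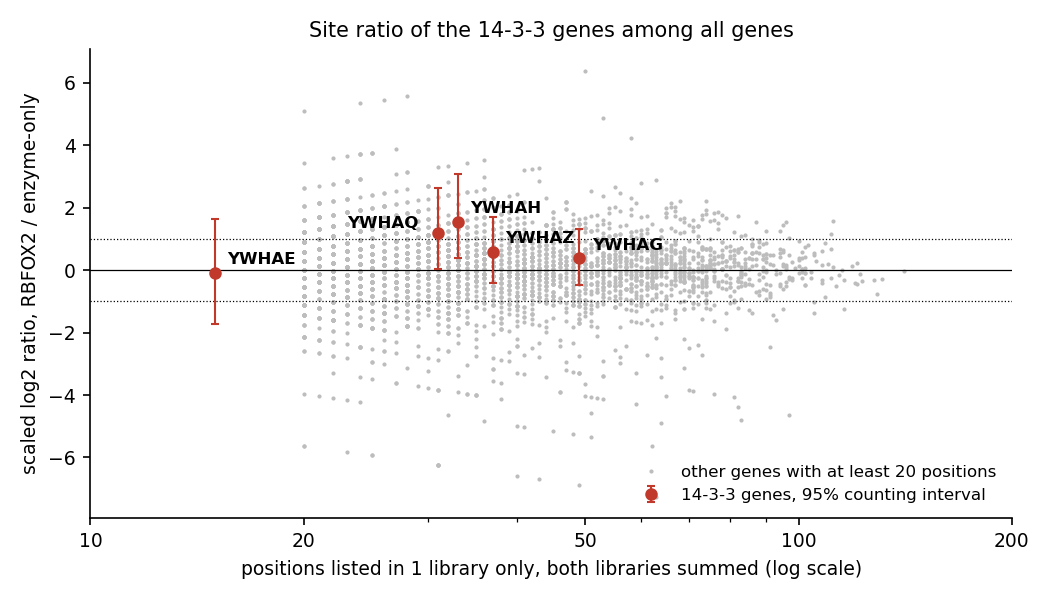
Scaled log2 ratio of RBFOX2-INSCRIBE over enzyme-only positions (y axis) against the number of positions listed in 1 library only (x axis, log scale) for the genes with at least 20 such positions (grey) and the 14-3-3 genes (red, with 95% counting intervals); dotted lines mark 1 and -1. YWHAH (1.56) and YWHAQ (1.20) lie above the upper dotted line, inside the range of other genes with as many positions, and YWHAE is drawn although it has only 15 positions.

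The number of converted reads separated the libraries more than the number of positions. Over the unshared positions the 6 genes had 370 converted reads with RBFOX2 and 128 enzyme-only, which is 49.3 and 18.0 per 1000 gene reads, a ratio of 2.74 (2.24 to 3.38). In the 787 deeply read genes the same ratio was 1.97, beside 2.97 for the members without YWHAG. In plain reads, most of the excess lay in YWHAQ, with 168 reads against 39: without YWHAQ the ratio of the other genes was 2.13. With shared positions included, the ratio of all 6 genes was 2.10. YWHAH had 65 reads against 14, YWHAZ 90 against 41, YWHAG 31 against 19 and YWHAE 16 against 15. Per 1000 gene reads the values were 82.6 and 19.7 in YWHAQ, 65.6 and 16.1 in YWHAH and 65.2 and 29.6 in YWHAZ. In YWHAG they were 69.0 and 50.3, and in YWHAE 16.6 and 17.0. These intervals treat reads as independent molecules, which full-length reads without molecular identifiers need not be.

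The share of positions near UGCAUG was above its expectation in the RBFOX2 library and close to it in the enzyme-only library, but the intervals of the libraries overlap, so a difference between them was not shown at this number of positions. Of the 111 RBFOX2 positions, 17 lay within 50 nt of a UGCAUG on the same strand, 15.3% (9.18 to 23.4), where 4.97% would be expected if each position were any exonic cytosine of its own gene, a ratio of 3.08 (1.85 to 4.70). Of the 54 enzyme-only positions 3 did, 5.56% (1.16 to 15.4) against 4.77% expected, a ratio of 1.16 (0.24 to 3.23). The expectation takes no account of region, and 83.8% of the RBFOX2 and 77.8% of the enzyme-only positions lay in 3′-UTRs. An expectation over 3′-UTR cytosines alone was not computed, so how much of either ratio goes with the region was not tested. Across all genes the ratios were 1.53 and 0.951, where 2.59% were expected for RBFOX2, and in the deeply read genes 2.10 (1.92 to 2.30) and 0.755. Without YWHAG, which is not among the deeply read genes, the members had 2.62 (1.29 to 4.57) and 1.33 (0.163 to 4.48), intervals that include the values of those genes. The ratio of the RBFOX2 positions stayed between 2.18 and 3.79 with windows of 20 and 200 nt, with the shorter motif GCAUG and with cytosines after A or U only, but at 200 nt the enzyme-only positions reached 1.86 (1.13 to 2.73), an interval that overlaps that of RBFOX2 (1.66 to 2.74). Neighbouring positions of a gene share its reads and are not independent.

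YWHAQ had the most converted reads near a motif. Its 3′-UTR motif at chr2:9584520-9584525 had 17 cytosines within 50 nt, and 5 of them were listed with RBFOX2 and none with enzyme alone. The position 7 nt 3′ of the motif (9584513) had 18 converted reads of 2035, 0.885% (0.525 to 1.39). The next, at 9584506, had 16 reads, 0.786% (0.450 to 1.27), and 9584504 had 7. On the 5′ side 9584551 had 10 reads, 0.491% (0.236 to 0.902), and farther 3′ 9584478 had 7. Together these were 58 converted reads against none listed enzyme-only, where a position needed 4 reads of 1983 to appear. The 2 positions with 18 and 16 reads had the highest counts of any unshared position in the 6 genes. The third highest of YWHAQ, 9585037 with 11 reads, lay 512 nt 5′ of the motif. The 3 enzyme-only positions with the most reads, 9588228 in the coding sequence and 9584625 and 9584414 in the 3′-UTR, had 6 each, and the nearer pair lay 100 and 106 nt from the motif.

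A second UGCAUG of YWHAQ, in the coding sequence at chr2:9630375-9630380, had 33 cytosines within 50 nt and no listed position in either library. The same was true of the coding motif of YWHAZ at chr8:100948812-100948817, with 20 cytosines. In both genes the listed edits near a motif were thus in the 3′-UTR. The reads that cover each motif were not given, so a difference between the regions was not tested.

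YWHAH, which has a single exonic UGCAUG (chr22:31957184-31957189), had 4 RBFOX2 positions within 50 nt of it among 24 cytosines. These were 31957165 with 4 converted reads of 991, 0.404% (0.110 to 1.03), 31957177 with 3, 31957204 with 4 and 31957216 with 2. The enzyme-only position nearby, 31957223, had 2 reads of 870. Of the 22 RBFOX2 positions farther away 1, 31956929, had 4 reads, and their median was 2. All 7 enzyme-only positions had 2 reads, the minimum. Much of the excess of YWHAH therefore lay outside the motif window: 22 RBFOX2 and 6 enzyme-only positions were farther than 50 nt from it.

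YWHAG had a motif toward each end of its 3′-UTR and was read at a depth where 1 converted read sufficed. Around the distal motif (chr7:76327340-76327345) 5 of 19 cytosines were listed with RBFOX2 alone, 2 in both libraries and none with enzyme alone: 76327394, 76327390, 76327375, 76327362 and 76327299. All but 76327375, with 2 reads, had 1 read. Within 200 nt of the distal motif the count was 12 against 0, with 2 shared. Within 200 nt of the proximal motif it was 4 against 5, also with 2 shared. The same count at the 3′-UTR motif was 9 against 2 in YWHAQ and 8 against 2 in YWHAH. In YWHAZ it was 6 against 2 and in YWHAE 3 against 3. Around the proximal motif (chr7:76329140-76329145) 2 of 28 cytosines, 76329190 and 76329124, were listed with RBFOX2 and 1, 76329120, with enzyme alone. Over the whole gene 29 of the 30 RBFOX2 positions and all 19 enzyme-only positions rested on 1 read each, so single positions of this gene carry little weight.

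YWHAZ and YWHAE had fewer positions at their 3′-UTR motifs. In YWHAZ 1 of 11 cytosines near the motif at chr8:100919849-100919854 was listed with RBFOX2 alone, 100919865 with 7 converted reads of 1381, 0.507% (0.204 to 1.04), the highest count among its 24 unshared positions. The next were 100920579 with 6 reads and 4 positions with 5 each, of which 100920620 is the most 5′. Its 13 enzyme-only positions had 3 reads, or 4 at 100920148 and 100919955. In YWHAE none of the 34 cytosines near the motif at chr17:1344774-1344779 was listed with RBFOX2 alone. 1344744 was listed with 2 enzyme-only reads. All 8 RBFOX2 positions of YWHAE had 2 reads, and of the 7 enzyme-only positions 1344903 had 3 and the others 2.

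**Figure D3:**
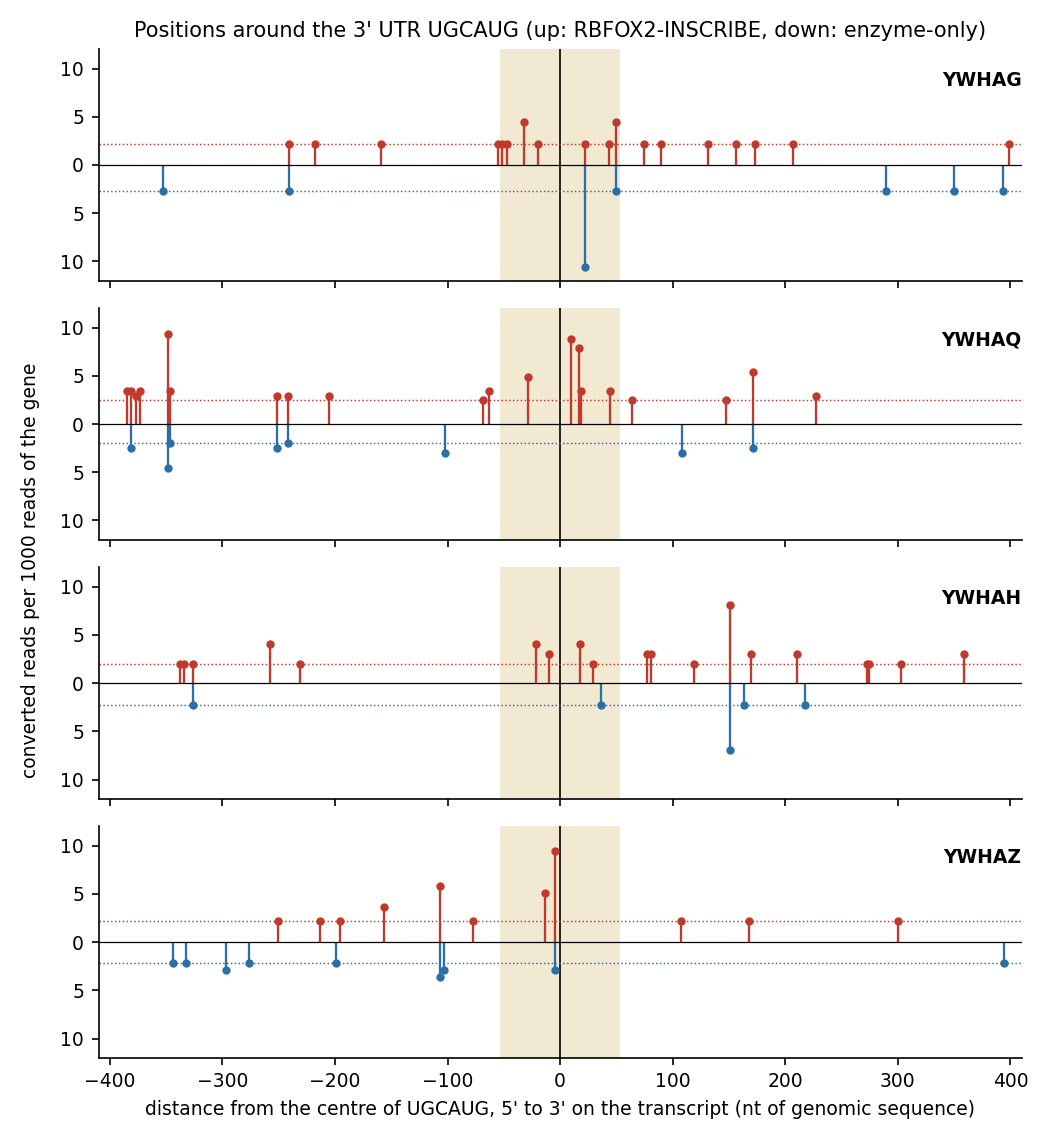
Converted reads per 1000 reads of the gene (y axis; RBFOX2-INSCRIBE upward, enzyme-only downward) at each listed position against its distance in nt from the centre of the 3′-UTR UGCAUG (x axis; the distal motif for YWHAG); the band marks 50 nt on either side of the motif and the dotted lines the lowest value that could be listed. In the band YWHAQ has 5 RBFOX2 positions and no enzyme-only position, and YWHAH has 4 and 1. The downward lines in the band of YWHAG are shared positions, the longer with 4 enzyme-only reads and the shorter with 1.

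The YWHAE locus needs care, since its isoforms also cover CRK, an adaptor gene that lies next to it on the same strand. The locus covered exons of YWHAE by 2454 bases and those of CRK by 2362, 4 of its 22 isoforms were of CRK, and 1 spanned both. Of its positions, 1423437 with RBFOX2 and 1422624 and 1422385 with enzyme alone lay in CRK. Without them YWHAE had 7 RBFOX2 and 5 enzyme-only positions, and the 6 genes together 110 and 52, a log2 ratio of 0.82. The 965 and 883 reads of the locus could not be divided between the genes.

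YWHAB differed from the others in having no edit specific to a library in spite of 1678 and 1617 reads and 1278 exonic cytosines. None of its exonic cytosines lay within 50 nt of a UGCAUG. Its 3 listed positions were shared and lay in the 5′-UTR, after a G in each case: 44885727 with 4 reads of RBFOX2 and 7 enzyme-only, 44885760 with 6 and 9, and 44885766 with 5 and 5. No cytosine of its 3′-UTR reached the minimum of 4 converted reads in either library.

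The 3′-UTR held 93 of the 111 RBFOX2 positions, 83.8% (75.6 to 90.1), and 42 of the 54 enzyme-only positions, 77.8% (64.4 to 88.0). If each position were any exonic cytosine of its own gene, 42.8% and 46.2% would be expected. The libraries' intervals overlap, so a difference in region was not detectable at this number of positions. The base before the edited cytosine was A or U at 103 RBFOX2 positions, 92.8% (86.3 to 96.8), and at 43 enzyme-only positions, 79.6% (66.5 to 89.4), against 45.8% and 47.0% expected in the same way. A and U are the neighbours that APOBEC1 prefers. The same shares over all genes were 71.7% and 63.8%. Those of the deeply read genes alone are not given. Among positions of the 6 genes with at least 2 converted reads the shares were 96.3% and 82.9%. In YWHAG, where 1 read sufficed, they were 25 of 30 and 14 of 19. How much of the difference from all genes goes with depth was not tested.

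The coding sequence held 15 RBFOX2 and 11 enzyme-only positions. In the reading frame of the reference transcript of each gene, 11 of the 15 conversions would leave the amino acid unchanged, as would 7 of the 11. Changes of the amino acid numbered 2 and 4. A conversion to a stop codon was found at 2 RBFOX2 positions: codon 68 of 246 in YWHAH (CAG to UAG, 2 of 991 reads) and codon 111 of 245 in YWHAZ (CAA to UAA, 3 of 1381 reads). The conversions are made in fixed cells and serve as marks of position.

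Isoforms were compared by editsC, the percentage of an isoform's exonic cytosines that were listed and unshared. Because positions and reads were given per gene, isoforms of a gene differ in editsC only through the cytosines they contain, and reads of each isoform are unknown. Isoforms were called where RBFOX2 editsC lay more than 1.5 SD of the residuals above or below a linear fit on enzyme-only editsC. Of all 108341 isoforms with a position, 6.49% were above and 2.44% below. Of the 88 isoforms of the 14-3-3 loci with a position, which include the CRK isoforms of the YWHAE locus, 5 were above, all of YWHAQ, and none was below. That is 5.68%, no higher a share than over all isoforms, so the called isoforms are given as values only.

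The 5 YWHAQ isoforms had 2 to 4 exons and thus mainly 3′ parts of the transcript. The farthest, PB.5362.18, had an editsC of 9.78% with RBFOX2 and 2.22% enzyme-only. PB.5362.9 had 8.65% and 1.88%, PB.5362.17 8.24% and 2.25%, PB.5362.16 7.75% and 2.46%, and PB.5362.8 7.47% and 1.95%. They reach the same distal 3′ ends as longer isoforms with the same number of RBFOX2 positions, such as PB.5362.1 with 4.87% and 1.69%, and contain fewer upstream cytosines.

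The 3′ end decided whether a YWHAQ isoform held the motif. The 15 isoforms that end 3′ of the motif had a median RBFOX2 editsC of 5.43% (4.51% to 9.78%), and the 7 that end before it 3.24% (0% to 7.23%), while the enzyme-only medians were 1.87% and 1.89%. Of the latter, 6 end at 9584615, upstream of the motif. The sequence beyond that end, with 98 cytosines, carried 11 of the 23 RBFOX2 positions and 1 of the 8 enzyme-only positions. PB.5362.28, which ends at 9585597 before this 3′-UTR, held no RBFOX2 and 3 enzyme-only positions.

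The other genes had no called isoform. All 38 YWHAZ isoforms had a higher editsC with RBFOX2, from 0.887% to 9.83%, than with enzyme alone, from 0.665% to 5.78%. The difference was lowest in PB.26226.51 (0.887% and 0.665%) and highest in PB.26226.46 (9.83% and 5.78%). The 5 YWHAH isoforms, which hold the motif, had 5.31% to 6.18% and 1.37% to 1.69%, with a highest difference in PB.50312.9 and a lowest in PB.50312.2. In YWHAG the isoform that ends at 76328955 and lacks the distal motif, PB.23361.11, had the lowest difference, 2.11% and 1.41%, and PB.23361.5 the highest, 3.76% and 1.79%. Isoforms of the YWHAE locus lay on both sides of equality, from PB.43016.23 with 0% and 1.16% to PB.43016.8 with 3.10% and 1.77%. Of those with a lower editsC with RBFOX2, all but PB.43016.23 were isoforms of CRK. None of the 24 YWHAB isoforms held an unshared position.

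**Figure D4:**
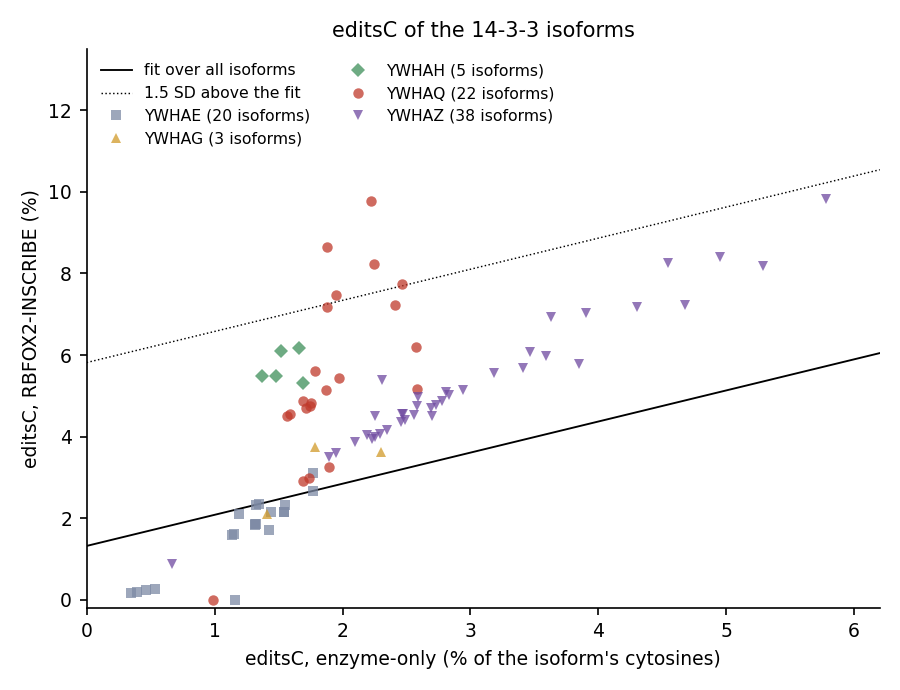
editsC with RBFOX2-INSCRIBE (y axis, %) against enzyme-only (x axis, %) for each isoform of the 14-3-3 loci with an unshared position, with the linear fit over all 108341 isoforms (solid) and the limit of 1.5 SD above it (dotted). The CRK isoforms of the YWHAE locus are drawn with YWHAE. The 5 YWHAQ isoforms above the dotted line are those with 7.47% to 9.78%; the YWHAH isoforms lie between the 2 lines, and the YWHAE isoforms near or below the fit.

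Positions listed in both libraries had 175 converted reads with RBFOX2 and 118 enzyme-only over 29 positions, and the library with the higher fraction differed by gene. In YWHAQ all 12 and in YWHAZ all 4 shared positions had a higher edit fraction with RBFOX2, whereas in YWHAB none of 3, in YWHAE none of 2, in YWHAG 1 of 6 and in YWHAH 1 of 2 did. Where the converted reads were equal, the fraction was higher in the library with fewer gene reads. This was so at both YWHAE positions, at most of those of YWHAG and at 31956860 of YWHAH. In YWHAQ a position needed 5 reads with RBFOX2 and 4 enzyme-only to be listed. A difference between the genes was therefore not tested by this count. The most edited position of YWHAQ, 9584871, which lies 346 nt 5′ of the motif, had 19 converted reads, 0.934% (0.563 to 1.45), with RBFOX2 and 9, 0.454% (0.208 to 0.860), enzyme-only. The window around it, from the same strand and build and with both listed cytosines in capitals, is shown because it holds the highest count of the 6 genes.
YWHAQ shared positions, chr2:9584862-9584891: tttctacattccctcccttaCtCttcgggg

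Of the shared positions near a motif or with a high edit fraction in the other genes, 3 are given. In YWHAZ 100919856, next to the motif, had 13 reads, 0.941% (0.502 to 1.60), against 4, 0.288% (0.0786 to 0.737). In YWHAH 31957337 had 8 reads and 6, 0.807% and 0.690%. In YWHAG 76327320, 3′ of the distal motif, had 1 read with RBFOX2 and 4 enzyme-only, 0.223% (0.00564 to 1.23) and 1.06% (0.289 to 2.69). Every pair of intervals given here overlaps.

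**Figure D5:**
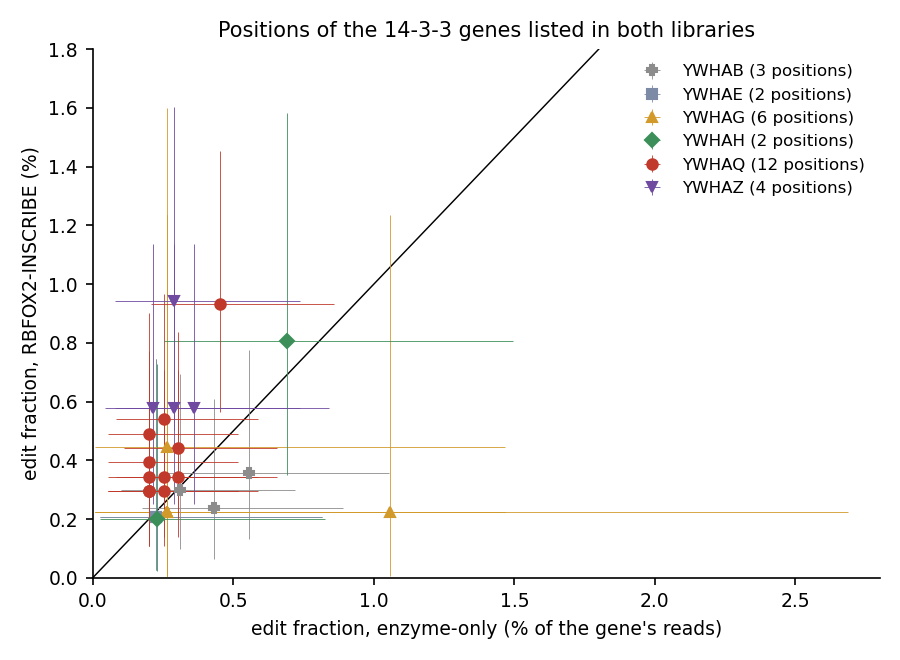
Edit fraction with RBFOX2-INSCRIBE (y axis, % of the gene's reads) against enzyme-only (x axis, %) at the 29 positions listed in both libraries, with 95% counting intervals; the line marks equality and positions with equal values overlap. The 12 YWHAQ and 4 YWHAZ positions lie above the line and the 3 YWHAB positions below it.

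SFN, the sigma member and the only other human 14-3-3 gene, had an isoform model but no listed position in either library. Of a list of 67 genes made of SFN and known clients and regulators, 50 had a listed position and 19 had at least 20 unshared positions. Of these, 4 were past a log2 ratio of 1 and 3 under -1, and the median was 0.14 beside 0.08 over all 3604 genes, so the share in either direction was close to 16.8% and 14.6%. The highest were SAMHD1, a dNTP hydrolase, with 17 and 3 positions and 2.06 (0.45 to 4.65), BCR, a signalling protein with kinase and GTPase-regulating domains, with 17 and 4 and 1.70 (0.21 to 3.85), and NADK, which makes NADP, with 42 and 12 and 1.5 (0.59 to 2.61). The lowest were AKT1S1, an inhibitor of mTORC1, with 26 and 67 and -1.61 (-2.34 to -0.96), FOXO3, a transcription factor held in the cytoplasm by 14-3-3, with 19 and 38 and -1.24 (-2.14 to -0.43), and BAD, a pro-apoptotic protein sequestered by 14-3-3, with 14 and 26 and -1.13 (-2.21 to -0.17). Each of the 19 had fewer reads than YWHAG in both libraries, at most 417 with RBFOX2 (TPX2) and 334 enzyme-only (AKT1S1). At this depth 1 converted read was enough to list a position, so these positions can each rest on 1 read. SAMHD1 had 53 and 46 gene reads, BCR 157 and 135, and NADK 200 and 172. AKT1S1 had 360 and 334, FOXO3 396 and 345, and BAD 297 and 249. Single positions of these genes therefore carry little weight.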

How the data were processed

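Edits from 2 long-read libraries of HEK293T cells were used, grouped by their descriptions in the labels. Per the methods of the study, full-length PacBio reads were aligned to hg38, primary alignments were kept and conversions were called with the authors' own code. The kit named in the labels is not the one in those methods, so the tables may stem from a different run; caller settings are not given in the sources used here. The deposited tables give, per position, a count of converted reads, a count of reads of the gene, an edit fraction (converted over gene reads) and a confidence score, which was not used. The isoform models were pooled over the libraries and hold no expression values.

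Loci were named from GENCODE 44 (bedtools 2.31.1). Positions annotated in several ways were counted as coding before UTR (3′ before 5′) and as exonic before intronic. Codons are those of the MANE Select transcript. The log2 ratio of a gene used a pseudocount of 0.5. Intervals are exact Clopper-Pearson intervals (scipy 1.17.1); those of log2 ratios come from the share of RBFOX2 positions, and those of motif ratios divide the bounds of the share by its expectation. UGCAUG was searched on the strand of the gene, by distance in the genome. The calculations were tested on simulated data. The annotation holds 26 pseudogene symbols of the 6 genes, and none received a locus here, so reads of near-identical copies were not separated. Annotated variants were not removed.

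The members, lists and most tests were chosen with earlier results of these data known. Named positions are, per gene, the 3 with the most reads in each library (ties broken from the 5′ end) and all unshared ones near a UGCAUG; named isoforms are those past 1.5 SD or those with the highest and lowest difference; named clients are the 3 highest and 3 lowest. Shared positions, coding changes and 3′ ends were chosen after their values were seen.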

Additional observations from a re-analysis of the deposited data

How the results depend on the processing

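Of 101 values recomputed under alternative settings, 92 stayed within their counting interval or, for counts, within 1.5 times. None of the 9 that moved past these limits changed direction. Values near equality did cross it inside their interval. The log2 ratio of YWHAE was -0.08, and 0.06 when scaled by the summed gene reads. The enzyme-only motif ratio was 1.16, and 0.93 with a window of 20 nt. With positions of both libraries kept, 1 gene was past a log2 ratio of 1 and the ratio of converted reads was 2.10. Leaving out YWHAQ, a setting added after the data were seen like the other omissions of a gene and of the CRK positions, gave 2.13. Counting 3′-UTR before coding sequence put 91.0% of RBFOX2 positions in the 3′-UTR. The isoforms above the fit numbered 19 with at least 2 converted reads, 1 with a limit of 2 SD and 3 where genes needed 20 reads in each library, beside 5. The share of 6.49% over all isoforms belongs to the main setting. Shares over all isoforms under the other settings are not given, so these counts are values only. With at least 10 positions per gene, 8 of 30 clients were past a log2 ratio of 1 and 5 under -1, beside 4 and 3 of 19. The shares of all genes past 1 or -1 are not given for this setting or with positions of both libraries kept. The counts of genes under these 2 settings are therefore values only. No paired analysis was possible because each group has 1 library. Precision is limited by the number of positions per gene and by the listing minimum, below which nothing is known, and reads per position and per isoform were not given.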
